A study of Mus musculus and Homo sapiens
Mus musculus with 12 samples.

Results

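The genes described here were the replication-dependent histone genes, chosen by symbol alone as the H1, H2A, H2B, H3 and H4 genes of the histone clusters (the H1-1 to H1-6, H2AC, H2BC, H3C and H4C series and their mouse equivalents). Of 116955 genes in the count tables, 131 met this rule, 66 of the 61541 human genes and 65 of the 55414 mouse genes. They were followed in 5 droplet libraries of single-nucleus total RNA, in which reverse transcription was started from random primers and transcripts were counted as unique fragment identifiers (UFIs). Each library mixed nuclei of HEK293T (293T), a human embryonic kidney line, with nuclei of NIH/3T3 (3T3), a mouse embryonic fibroblast line. In 1 library the reverse transcription primer carried cell barcode 2, a first index written before the droplets (the preindexed library). The other 4 were loaded on the device at 300, 600, 1200 and 2000, in units of 1000 nuclei per ml (the loading libraries), and their labels name no preindex. No drug or gene was varied, the labels name no synchronisation of the cell cycle, and human genes were read only in 293T nuclei and mouse genes only in 3T3 nuclei. A nucleus was assigned to a line when at least 90% of its UFIs lay on genes of that species, which gave 22562 nuclei of 293T and 17062 of 3T3.

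A cell that copies its DNA must also double its histones, and these genes are switched on together for that purpose, at S phase, by the coactivator NPAT with FLASH (encoded by CASP8AP2). Their mRNAs are unusual in that most end in a short stem-loop in place of a poly(A) tail. The stem-loop binding protein SLBP and the U7 snRNP direct the cut behind it, and the mRNAs are degraded when replication ends. H2A, H2B, H3 and H4 form the nucleosome core, and the H1 proteins bind the linker DNA between nucleosomes.

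The stem-loop is shown because it is the feature that sets these transcripts apart from other mRNAs. It was searched for in the mouse transcripts of GENCODE M21 (build GRCm38) as 16 letters of the form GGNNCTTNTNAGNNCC, on the transcript strand, with a pyrimidine at each N of the left arm and of the loop's first N, any base at the next and a purine at each N of the right arm. It was found in 43 of the 65 mouse members (66.2%) and in 59 of all 55450 genes (0.106%). Of the 22 members without it, 12 had gene models that stop at the coding sequence. The most frequent form, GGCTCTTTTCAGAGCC, stood in 24 members, and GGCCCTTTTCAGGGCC and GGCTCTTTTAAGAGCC in 6 each. The sites below belong to members described in the text, 5′ to 3′, with the stem-loop in capitals and 5 bases on either side.
H1f4: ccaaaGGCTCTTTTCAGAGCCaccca
H1f2: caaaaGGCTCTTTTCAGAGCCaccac
H2ac6: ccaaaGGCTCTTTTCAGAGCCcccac
H3c7: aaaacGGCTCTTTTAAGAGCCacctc
H3c3: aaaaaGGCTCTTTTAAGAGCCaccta
H4c4: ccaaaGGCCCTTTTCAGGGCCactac
H4c14: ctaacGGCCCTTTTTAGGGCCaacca
H1f4, H1f2 and H2ac6 carried the same 16 letters, and the H3 genes H3c7 and H3c3 shared another form. No match was found in H2bc4 or H2bc21. Members with the stem-loop held 74.9% of the mouse member UFIs of the preindexed library and 71.8% of those of the loading libraries.

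The mouse members lay in 2 places, 55 on chromosome 13 and 10 on chromosome 3, and 60 of them had a single exon. Promoter sequences (250 bases before to 50 after the start, RefSeq, GRCm38.p6) matched 33 of the 65. These were 6 H1, 16 H2A, 9 H2B, 2 H4 and 0 H3 genes, so the shares below say nothing of H3 and little of H4. The letters CCAAT, the recognition sequence of NF-Y, stood on either strand in 93.9% of the 33 and in 37.4% of all 32851 promoters of that length. Of the 2 H4 promoters 0 had it. TATAAA stood in 63.6% against 13.6%. ATTTGCAT, the octamer recognised by OCT1, stood in 33.3% against 1.74%, and the members with it were 6 H2A and 5 H2B genes. Some windows of neighbouring H2A and H2B genes on opposite strands overlap, such as those of H2ac12 and H2bc12. The same site can thus count for both genes, and the 33 windows are not all separate stretches. The 150 bases before the start of H1f4 (chr13:23622559-23622708, minus strand) and of H2ac6 (chr13:23683960-23684109, minus strand) are given to show the arrangement, with these motifs in capitals.
H1f4: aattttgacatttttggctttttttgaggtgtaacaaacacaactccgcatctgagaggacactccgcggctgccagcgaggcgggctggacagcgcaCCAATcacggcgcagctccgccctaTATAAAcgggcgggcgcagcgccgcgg
H2ac6: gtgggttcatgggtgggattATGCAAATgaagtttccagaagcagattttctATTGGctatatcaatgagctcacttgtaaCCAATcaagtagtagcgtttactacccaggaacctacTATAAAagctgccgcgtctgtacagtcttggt
ATGCAAAT and ATTGG in the H2ac6 window are the octamer and CCAAT as read on the opposite strand.

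Members were detected in both lines and in every library, and the preindexed library had the most. Library totals ran from 14097151 to 35223112 UFIs. The preindexed library had the fewest nuclei and the deepest, with a median of 14144 UFIs per 293T nucleus and 10722 per 3T3 nucleus, against 894 to 3399 and 756 to 2284.5 in the loading libraries. The line labels were set against marker lists, and the fibroblast list separated the lines widely. A list of 12 fibroblast genes such as Col1a1 summed to 4260 to 7944 UFIs per 1000000 UFIs of the line's own genes (UPM) in 3T3 and its human counterparts to 116 to 212 in 293T. Postn, also on that list, was at 0 in 3T3 in the preindexed library and at loadings of 300 and 600. A list of 12 genes of the kidney line summed to 528 to 731 in 293T and 302 to 505 in 3T3. In the preindexed library this list hardly separated the lines, at 528 in 293T and 505 in 3T3. KRT18 and BEX1 were at 0 in 3T3, but BEX1 was also at 0 in 293T at loadings of 600 and 1200.

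In 293T the members together made up 227 UPM in the preindexed library, 70.0 at a loading of 300, 59.0 at 600, 76.8 at 1200 and 69.8 at 2000. In 3T3 they made up 274 in the preindexed library, 17.0 at 300, 14.1 at 600, 15.7 at 1200 and 14.4 at 2000. The 4 loading libraries were close to each other in either line (68.9 ± 7.34 SD in 293T and 15.3 ± 1.34 in 3T3, n = 4), and the preindexed library stood 2.95-fold above the highest of them in 293T and 16.1-fold in 3T3. Counting error was small beside this gap: the exact Poisson 95% intervals in the preindexed library were 220 to 233 in 293T and 265 to 282 in 3T3. With 1 preindexed library there was no test of the gap, and preindex, depth and preparation cannot be told apart.

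**Figure D1:**
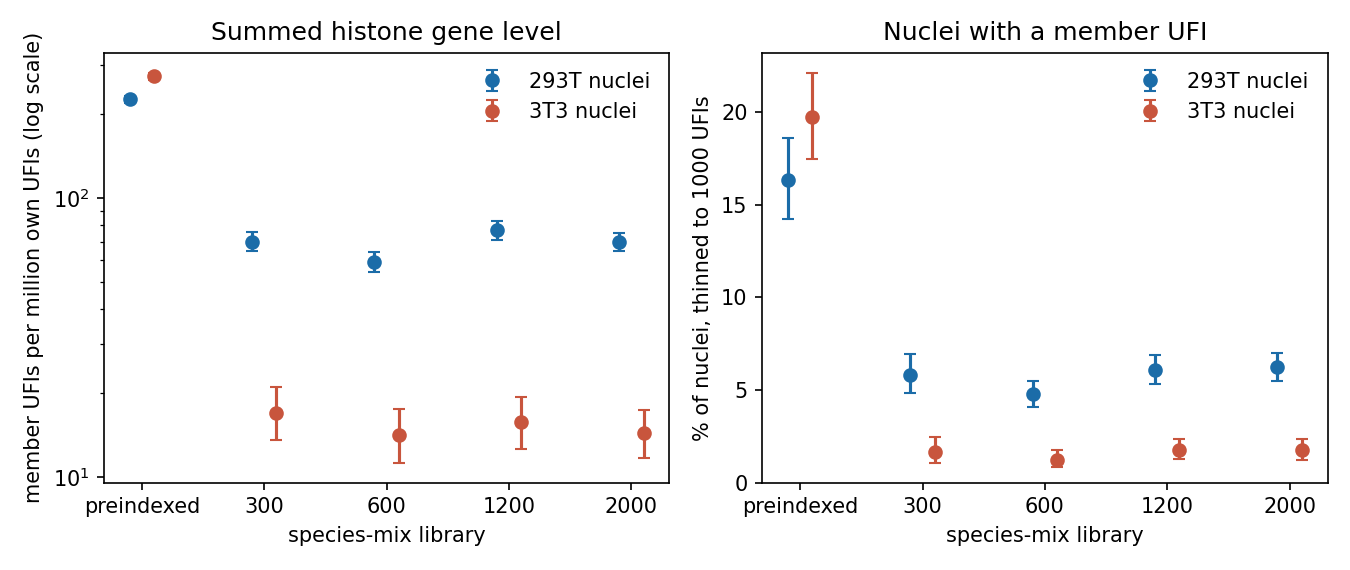
Left, summed level of the replication-dependent histone genes in UPM (log axis) with exact Poisson 95% intervals, and right, the share of nuclei with a member UFI after thinning to 1000 UFIs with exact 95% intervals, in the 5 libraries for 293T and 3T3. The loading libraries lie at 59.0 to 76.8 UPM in 293T and 14.1 to 17.0 in 3T3, and the preindexed library at 227 and 274.

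The order of the lines also changed with the library. In the preindexed library the 293T sum was 0.828 times the 3T3 sum, and in the loading libraries it was 4.11, 4.18, 4.88 and 4.86 times the 3T3 sum (300 to 2000). The sums are over different genes of different species, so they were set side by side and not tested.

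Other gene groups differed between the libraries as well, and their part in the histone result was not tested. Mitochondrially encoded genes stood 4.55-fold higher in the preindexed library than in the highest loading library in 293T and 7.06-fold in 3T3, and ribosomal protein genes, which give short polyadenylated mRNAs, 3.45-fold and 4.34-fold. Replacement histone genes, most of which are made throughout the cell cycle and carry poly(A) tails, were near level at 1.06-fold and 1.13-fold. Genes of histone mRNA processing were at 0.717 and 0.996 times the highest loading library.

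Per nucleus the transcripts were sparse. In the preindexed library 67.8% of 293T nuclei and 67.6% of 3T3 nuclei held at least 1 member UFI. Since deeper nuclei show more genes, each nucleus was also thinned to 1000 UFIs. At that depth the share in 293T was 16.3% (exact 95% interval 14.2 to 18.6) in the preindexed library and 5.84%, 4.77%, 6.08% and 6.22% at 300, 600, 1200 and 2000. In 3T3 it was 19.7% (17.5 to 22.1) in the preindexed library and 1.65%, 1.24%, 1.77% and 1.74%. In each line the share in the preindexed library lay above those of the 4 loading libraries, also after thinning. Nuclei too shallow for thinning numbered 0 in the preindexed library and 86 to 6051 (293T) and 217 to 5287 (3T3) in the loading libraries. Unthinned, the loading libraries held a member UFI in 17.3% down to 6.19% of 293T nuclei and 4.32% down to 1.28% of 3T3 nuclei.

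The nuclei of the other species gave the background. In the preindexed library 4.62% of 3T3 nuclei held a UFI on a human member and 4.24% of 293T nuclei one on a mouse member, unthinned, and 0.427% and 0.265% after thinning to 1000. In the loading libraries this share was at most 0.600%, unthinned. Detection in the proper line was above the background share in every library. The 90% rule alone would give that, since it leaves few UFIs of the other species in a nucleus. The comparison is thus no test of the members. In the preindexed library human members stood at 267 UPM of the human UFIs in 3T3 nuclei (61 UFIs), against 227 in 293T nuclei. Mouse members stood at 347 in 293T nuclei (53 UFIs), against 274 in 3T3 nuclei. The loading libraries gave 2 to 10 such UFIs per line, too few to compare. Where members were detected they were concentrated. The top 10% of nuclei by member UFIs held 48.5% of them in 293T and 47.0% in 3T3 in the preindexed library, and single nuclei reached 53 and 37 UFIs against medians of 2 and 1.

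Of the 66 human members, 50 had a UFI in at least 1 library and 16 had none. Of the 65 mouse members, 56 had a UFI. The 9 with none were H1f1, H1f6, H2ac1, H2ac14, H2ac18, H2ac23, H2bc18, H2bc23 and H3c14, of which H1f6 and H2ac1 are known from the male germ line. H2ac14 is annotated in GENCODE M21 as an unprocessed pseudogene. In the preindexed library 47 human and 56 mouse members were seen. Single loading libraries showed 31 to 38 human and 20 to 24 mouse members. Many of these genes are near-identical copies, and reads that match several copies cannot be given to 1 of them, so the values of single genes are less certain than the sums.

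The preindexed library did not simply show more of the same genes, most plainly in 293T. The 10 members with the most UFIs in the preindexed library and the 10 in the loading libraries shared 2 in 293T, H2BC5 and H2BC11, and 6 in 3T3. The 10 of the preindexed library held 23.3% of the loading UFIs in 293T and 69.3% in 3T3, where these were only 358. Across all members the rank correlation of the 2 sets of values was 0.737 over 66 genes and 0.673 over 65, given as a description, since the genes are not independent. By class, H1 took 17.6% of the 293T member UFIs in the preindexed library and 1.34% in the pooled loading libraries. H2B took 44.2% and 61.1%, H2A 17.9% and 21.8%, H3 12.8% and 3.48%, and H4 7.41% and 12.2%. In 3T3, H1 took 33.6% and 26.8%, H2B 25.5% and 50.3%, H2A 10.3% and 5.59%, H3 17.2% and 8.94%, and H4 13.6% and 8.38%. H3 thus took a larger share in the preindexed library in both lines, and H2B a smaller one.

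A gene was counted as higher in the preindexed library when its level was at least 4-fold above that in every loading library, among genes with at least 30 UFIs over the 5 libraries and with a floor of 3 counts per library. This held for 4.8% of 20753 human genes and for 9.16% of 14974 mouse genes, and 8.39% and 2.71% were at least 4-fold lower than in every loading library. Among the 33 human members with 30 UFIs it held for 21, and 1, H2AC8, was at least 4-fold lower than in every loading library. Among the 36 mouse members with 30 UFIs it held for 29 and none was lower. Members that reached 30 UFIs through the preindexed library alone had to differ, so these counts are a description.

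The linker histone genes were among the members with the widest gap. H1-4 gave 20.1 UPM in 293T in the preindexed library and 0.114, 0.305, 1.18 and 0.183 at 300, 600, 1200 and 2000, 17.1-fold above the highest of these. H1-2 gave 16.3 and then 0.568, 0.305, 0.118 and 0.183, 28.8-fold. Their mouse counterparts showed the same picture, every loading library far below the preindexed one. H1f4 gave 38.3 UPM in 3T3 in the preindexed library and 1.80, 1.87, 2.12 and 1.57 in the loading libraries, 18.1-fold above the highest. H1f2 gave 19.5 and then 0.601, 1.19, 1.59 and 1.99, 9.80-fold.

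Core histone genes behaved in more than 1 way. H3C2 gave 14.1 UPM in the preindexed library and 0.114, 0.203, 0 and 0.640 in the loading libraries, 21.99-fold above the highest. H3C1, which tied with H3C10 at 108 UFIs as the next H3 gene, gave 5.34 and then 0, 0, 0.118 and 0.274. In 3T3, H3c7 gave 9.94 and then 0.601, 1.19, 0.885 and 1.14, and H3c3 gave 8.12 and was at 0 in all 4 loading libraries, which makes it at least 13.5-fold higher when 3 counts are taken as the floor of each library. Outside the preindexed library these H3 genes thus gave few UFIs or none. H4C3 went from 4.52 in the preindexed library to at most 0.590 in the loading libraries, and the mouse H4 genes H4c4 and H4c14 from 7.59 and 7.52 to at most 0.601 and 0.708.

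Some human members did not share this gap. H2BC11 gave 8.47 UPM in the preindexed library and 10.6, 8.84, 8.85 and 9.32 in the loading libraries. H2BC15 gave 7.86 and then 8.63, 7.01, 9.67 and 7.68. Both were level over the 5 libraries. H4C8 gave 2.72 and then 6.36, 4.98, 7.08 and 6.49, and H2AC8 gave 1.13 and then 7.50, 6.40, 9.67 and 5.03, so that these were lower in the preindexed library than in each of the other 4. H2AC6 gave 6.32 and then 6.36, 4.68, 7.32 and 6.67.

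The 6 members listed as able to carry a poly(A) tail, H1-2, H2BC4, H2BC5, H2AC6, H2BC12 and H2BC21, were spread over the whole range. The preindexed library was 28.8-fold above the highest loading library for H1-2, 20.8-fold for H2BC12, 9.86-fold for H2BC21, 3.72-fold for H2BC5, 1.73-fold for H2BC4 and 0.863-fold for H2AC6. These human values did not set them apart from the other human members. In mouse the listed counterparts H2bc4, H2ac6, H2bc12 and H2bc21 stood 6.32-, 13.1-, 14.7- and 1.95-fold above the pooled loading libraries. Members with at least 30 UFIs ran from 1.95 to 63.7 (H3c3), with 3 counts as the floor. The listed genes lay in the lower part, as did H2bc6 (3.56), H2bc15 (8.37), H3c7 (10.2), H4c8 (10.9) and H1f2 (13.9), which are not listed in mouse. H2bc12 had 28 UFIs in the preindexed library and 2 in the loading libraries, taken as 3, so its value could be no higher. Over the highest loading library, the measure given for the human genes, the 4 mouse genes stood at 4.02-, 7.87-, 3.13- and 0.782-fold. H2bc21 gave 1.41 UPM in the preindexed library and 1.80 at a loading of 300. Whether the listed mouse genes differ from the others was not tested.

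In mouse, where exon lengths were at hand, the levels per kilobase of exon could be ordered in the preindexed library. H2bc13 (named after its value was seen) was highest with 27.0 UPM per kilobase, followed by H1f5 with 23.3 and H1f4 with 19.9. H3c3 had 12.9, H1f2 12.5, H2ac15 11.6, H2bc4 8.36, H3c7 7.88, H4c4 6.67, H4c14 4.61 and H2bc6 2.69. With 1 library the spread behind this order is not known. The order also rests on the gene models, which end at unlike places. The model of H2bc13 holds 381 bases without a stem-loop match, while those of H1f2 and H4c14 run 840 and 1257 bases past theirs. The gene with the most UFIs in the 3T3 loading libraries, H2bc6, held 22.1% of them, at 5.01, 2.04, 3.36 and 3.28 UPM against 11.9 in the preindexed library. Its annotated span is the exception among these short genes. It covers 37455 bases (chr13:23583670-23621124, minus strand, GRCm38) and overlaps H1f4 (chr13:23620629-23622558) on the same strand. The 3 mouse members that span more than 5000 bases held 13.98% of the preindexed and 34.4% of the loading UFIs.

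**Figure D2:**
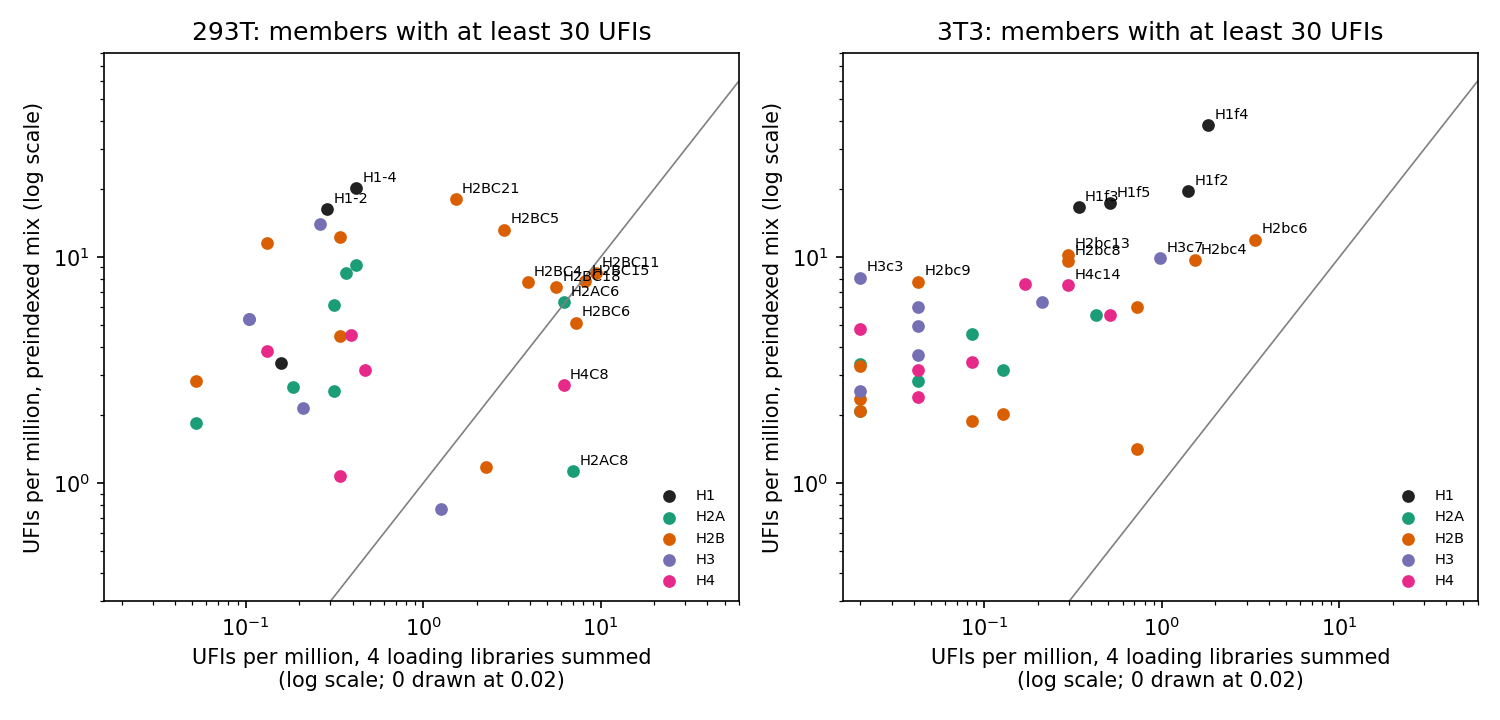
Level in the preindexed library against the level in the 4 loading libraries summed, in UPM on log axes (0 drawn at 0.02), for the members with at least 30 UFIs in 293T (33) and 3T3 (36), coloured by histone class, with the line of equal levels. All 3T3 members lie above the line, while in 293T H2BC11, H2BC15 and H2AC6 lie near it and H4C8 and H2AC8 below it.

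Each nucleus was then assigned to G1, S or G2M from 43 S-phase and 54 G2M genes, none of them a member. Of the 293T nuclei 59.1% to 70.3% fell in S and 2.12% to 9.31% in G1, the latter only 24 nuclei in the preindexed library. Of the 3T3 nuclei 42.1% to 65.1% fell in G1. Their S share was 23.5% in the preindexed library and 18.5%, 5.95%, 20.5% and 6.22% at loadings of 300, 600, 1200 and 2000. With phases scored after thinning to 1000 UFIs it was 35.6%, 12.8%, 20.8%, 18.7% and 14.8%. The G1 class of 293T in the preindexed library then held 119 nuclei. The S and G1 classes thus took unlike parts of the nuclei from library to library, which limits the comparisons of S with G1 below. The assignment is a cut through a continuum: 15.0% to 30.9% of 293T nuclei and 35.3% to 60.3% of 3T3 nuclei lay within 0.05 score units of a border. Since the lists set the phases, their own genes are no test of them. Of the S genes 40 of 42 were higher in S than in G1 in 293T and 38 of 38 in 3T3, and of the G2M genes 34 of 52 and 44 of 53 were higher in S than in G1 too.

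In 3T3 the summed member level was higher in S and in G2M than in G1 in every library. The preindexed library gave 102 UPM of members in G1, 352 in S and 398 in G2M. At loadings of 300, 600, 1200 and 2000 the S nuclei gave 14.5, 31.6, 19.98 and 27.6, the G1 nuclei 12.7, 8.48, 11.1 and 9.99, and the G2M nuclei 25.6, 20.8, 21.5 and 19.6. S stood above G1 in 5 of 5 libraries (mean log2 ratio 1.24 ± 0.72 SD), G2M stood above G1 in 5 of 5 (1.24 ± 0.43), and the log2 ratio of S to G2M was above 0 in 2 of 5. The loading values for S rested on 9 to 21 member UFIs each. With phases scored after thinning to 1000 UFIs S stood above G1 in 4 of 5, the ratio at a loading of 300 being −0.23. When S was taken as the top 25% of nuclei by S-list share with a G2M-list share below the median, and G1 as nuclei at or below both medians, the mean log2 ratio of S to G1 was 0.49 ± 1.34 and S stood above G1 in 3 of 5, the ratio being −0.81 at a loading of 1200 and −1.03 at 2000, with 220 in S and 74.7 in G1 in the preindexed library and 1 to 3 member UFIs in S in each loading library.

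In 293T the summed member level was highest in G2M. The preindexed library gave 160 UPM of members in G1, 183 in S and 330 in G2M. In the loading libraries the G2M nuclei gave 104, 79.9, 96.0 and 101, the S nuclei 49.9, 50.3, 67.8 and 55.5, and the G1 nuclei 94.1, 45.6, 67.0 and 58.0. G2M stood above S in 5 of 5 libraries (S over G2M −0.79 ± 0.21 on the log2 scale) and above G1 in 5 of 5 (0.66 ± 0.35). The log2 ratio of S to G1 was −0.13 ± 0.45 and above 0 in 3 of 5. With the classes by list share just described it was −0.41 ± 0.08, with S below G1 in 5 of 5.

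**Figure D3:**
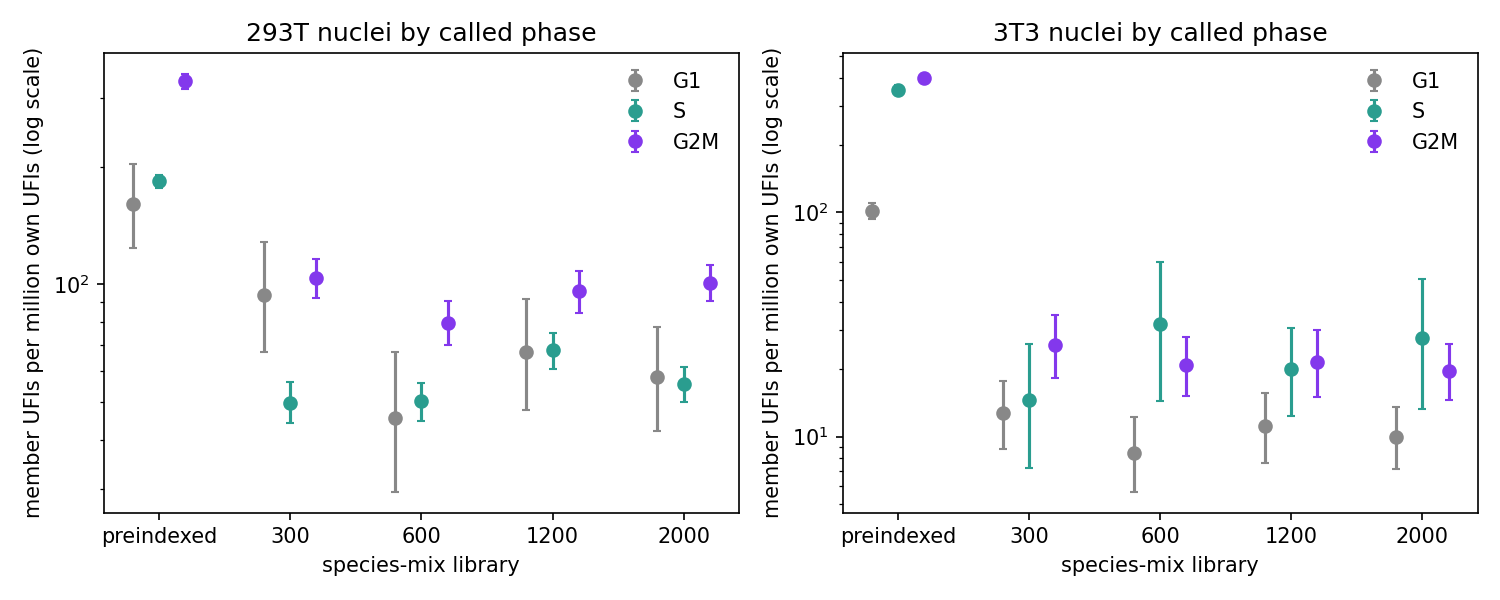
Summed member level in UPM (log axis) in G1, S and G2M nuclei of each of the 5 libraries, for 293T and 3T3, with exact Poisson 95% intervals. In 3T3 G1 is lowest in every library, and in 293T G2M is highest in every library.

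The single genes were tested on UFIs summed per library and phase, with the library as a block (edgeR, quasi-likelihood test, Benjamini-Hochberg adjustment over all genes tested). The labels do not say that the libraries came from separate cultures, so the p-values measure the spread between these libraries, which may be technical. Of the 66 human members 9 passed the count filter and were tested, and of the 65 mouse members 2. The filter asks for counts in more phase sums than 1 library supplies, so it left out members with few UFIs in the loading libraries. H1-4, with 408 UFIs of which 16 lay in the loading libraries, was not tested, while H4C8, with 289 of which 236 lay there, was. The 9 human members tested thus do not stand for those with the widest gap between the libraries.

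Between S and G2M nuclei of 293T, 8.89% of 14203 genes were called, 4.7% higher and 4.19% lower in S. Of the 9 members, 7 were lower in S and none higher, and their median log2 difference was −0.89 against −0.01 for all genes. H4C8 (ENSG00000158406), an H4 gene, was lower by 1.01 ± 0.21 SE (adjusted p = 0.00059). Its levels in the loading libraries were 4.22, 3.98, 5.02 and 5.32 UPM in S and 10.9, 7.66, 11.4 and 8.80 in G2M, without overlap, and 2.27 and 3.94 in the preindexed library. H2BC11 (ENSG00000124635), an H2B gene, was lower by 0.95 ± 0.20 (adjusted p = 0.00048), with 7.11, 7.34, 7.00, 7.15 and 6.65 in S and 12, 13.3, 14.3, 13.3 and 15.3 in G2M from the preindexed library to a loading of 2000. These S values were almost level and every G2M value was above all of them. The other 5 were H2BC4 (−0.94), H2BC5 (−0.90), H2AC8 (−0.89), H2BC15 (−0.83) and H2AC6 (−0.70), with adjusted p-values of 0.00059 to 0.022. H2BC18 (−0.50, adjusted p = 0.13) and H2BC6 (−0.41, adjusted p = 0.23) did not pass.

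These calls depended on the fit. Without the library block 0 of the 9 passed, when 86 genes in all were called. When phases were scored after thinning each nucleus to 1000 UFIs 3 of 10 passed, and the difference was −0.25 ± 0.25 for H4C8 (adjusted p = 0.67, edgeR) and −0.40 ± 0.21 for H2BC11 (adjusted p = 0.30). DESeq2 gave an adjusted p to only 1 of the 9, H2BC11 (0.10), and NA to 8, while 6 had an unadjusted p under 0.05 and all 9 a log2 difference below 0.

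Between S and G1 nuclei of 293T, 2.87% of the genes were called, 2.04% higher and 0.824% lower in S, and 0 of the 9 members (1 at an unadjusted p under 0.05 by edgeR, 0 by DESeq2). The largest difference was that of H2BC18 (1.06, adjusted p = 0.37). The G1 nuclei numbered 24 in the preindexed library and 157, 298, 480 and 865 in the loading libraries, and the missing calls do not show that the phases are alike.

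Between S and G1 nuclei of 3T3, 11.2% of 10390 genes were called, 6.48% higher and 4.68% lower in S. Of the 2 members tested, H1f4 (ENSMUSG00000051627) was higher in S by 1.46 ± 0.28 SE on the log2 scale (adjusted p = 0.00060). Its levels were 45.1 UPM in S and 14.8 in G1 in the preindexed library, and 1.32 and 1.12, 7.03 and 0.877, 1.90 and 1.01, and 2.76 and 1.22 at 300, 600, 1200 and 2000. The S values of the 4 loading libraries rested on 6 UFIs in all, against 165 in the preindexed library, so the call rests on the preindexed library. H2bc6, whose span overlaps H1f4, differed by 0.65 ± 0.35 (adjusted p = 0.27). Without the block neither passed (H1f4 1.74 ± 1.20, adjusted p = 1.00). H1f4 had too few counts to be tested without the preindexed library, with phases scored after thinning to 1000 UFIs, or with nuclei assigned at 75% of UFIs. Between S and G2M in 3T3, 3.79% of the genes were called, 0.866% higher and 2.93% lower in S, and neither member (H1f4 −0.31, adjusted p = 0.65; 0 of 2 at an unadjusted p under 0.05 by edgeR or DESeq2).

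The preindexed library was deep enough to look at more genes, though as 1 library it allows no test. In 3T3, 34 members had at least 30 UFIs there. All 34 were higher in S than in G1, with a median ratio of 4.00, and 22 were highest in G2M and 12 in S. In 293T 29 members had 30 UFIs, of which all were higher in G2M than in S, 25 were highest in G2M, 4 in G1 and none in S. The G1 class of 293T held 24 nuclei and 67 member UFIs there, so the place of G1 rests on few counts. The same order over all genes with 30 UFIs was not computed, so these counts describe the members alone. All 5 classes were higher in G2M than in S in both lines. The exact Poisson intervals of S and G2M overlapped for every class in 3T3 and for none in 293T. With phases scored after thinning to 1000 UFIs, the summed 3T3 level was 366 UPM in S and 339 in G2M. The order of S and G2M in 3T3 thus depended on the scoring. In 3T3 the G1, S and G2M levels were 36.2, 115 and 134 UPM for H1 genes, 5.62, 40.5 and 42.9 for H2A, 34.4, 82.9 and 97.2 for H2B, 13.5, 65.6 and 69.1 for H3, and 12.1, 48.1 and 55.6 for H4. In 293T they were 21.5, 32.2 and 58.5 for H1, 26.3, 33.8 and 57.3 for H2A, 64.5, 81.6 and 145 for H2B, 35.8, 22.9 and 42.5 for H3, and 11.9, 12.7 and 26.4 for H4. H3 alone was higher in G1 than in S there, on 15 UFIs in G1, and 20 of the 29 members were higher in S than in G1. Over nuclei thinned to 4000 UFIs the Spearman correlation of H1 with core members was 0.291 in 293T (1133 nuclei) and 0.300 in 3T3 (1170), a description within 1 library.

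When the nuclei of the preindexed library were ordered by the share of their UFIs on the S list and on the G2M list, and each order was cut into 3 equal sets, the member level varied widely between the fields. In 3T3 the level was 640 UPM (132 nuclei) where both lists were high. It was 335 (235 nuclei) where the S list was high and the G2M list middling, 77.8 (23 nuclei) where the S list was high and the G2M list low, and 71.6 (301 nuclei) where both were low. In 293T it was 335 (exact Poisson 95% interval 318 to 352, 250 nuclei) where the S list was low and the G2M list high, 309 (280 to 339, 90 nuclei) where the S list was middling and the G2M list high and 294 (250.5 to 343, 38 nuclei) where both were high, with overlapping intervals. It was 297 (88 nuclei) where the S list was low and the G2M list middling, 89.6 (180 nuclei) where the S list was high and the G2M list low, and 61.1 (40 nuclei) where both were low. Where the S list was middling and the G2M list low, the level was 47.7 in 3T3 (66 nuclei) and 87.3 in 293T (158 nuclei). In both lines the fields with a low G2M list were thus the lowest, whatever the S list. Among them, the 3T3 field with a high S list rested on 18 member UFIs (exact Poisson 95% interval 46.1 to 123).

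**Figure D4:**
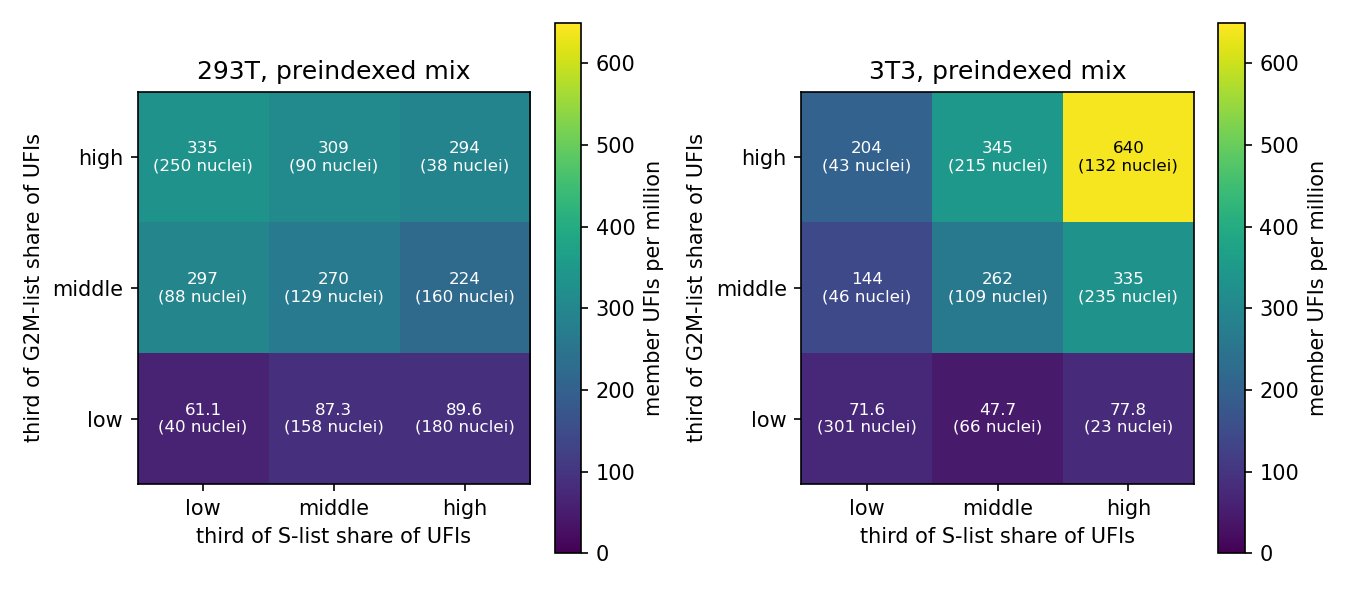
Summed member level (UPM, colour and printed value) in nuclei of the preindexed library grouped by low, middle and high share of UFIs on the S-phase list and on the G2M list, for 293T and 3T3, with the number of nuclei in each field. The 3T3 field with both lists high stands at 640, and the 293T fields with a high G2M list stand at 335, 309 and 294.

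Nuclei were also grouped by their number of member UFIs. In the 3T3 preindexed library 379 nuclei held no member UFI and 68.3% of them were in G1, while of the 129 nuclei with 10 or more 6.20% were in G1, 31.0% in S and 62.8% in G2M. In 293T 365 nuclei held none, 81.1% in S and 16.2% in G2M, and 132 held 10 or more, 50.0% in S and 49.2% in G2M. The rich nuclei were also deeper, with medians of 18587 against 8651 UFIs in 3T3 and 25676.5 against 10734 in 293T, and the part of depth in this was not tested.

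The machinery around these genes was described from 3 lists. Among 19 genes of histone mRNA synthesis and processing, 3 of 18 tested were higher in S than in G1 in 293T and 8 of 15 in 3T3. None was lower. Of all genes 2.04% were higher in S in 293T and 6.48% in 3T3. SLBP, the stem-loop binding protein, was higher in S by 1.41 ± 0.17 SE in 293T (adjusted p = 1.08e-08), with 58.0 to 67.6 UPM in S, 15.8 to 28.7 in G1 and 25.5 to 32.8 in G2M. Slbp was higher by 2.02 ± 0.21 in 3T3 (adjusted p = 8.00e-08), with 29.5 to 96.4 in S and 7.73 to 19.1 in G1. In neither line did the S and G1 ranges overlap. CASP8AP2, which encodes FLASH, was higher by 1.22 and 1.79, and CCNE2, cyclin E2, by 3.05 in 293T. SLBP, CASP8AP2 and CCNE2 were themselves on the S list, so their direction is not independent of the phases. They were the 3 called in 293T, so no processing gene outside the S list was called there. NPAT was not on that list. It was higher in S by 0.42 ± 0.09 in 3T3 (adjusted p = 0.0022), and the difference of 0.31 ± 0.12 in 293T did not pass (adjusted p = 0.16).

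Between S and G2M nuclei of 293T, SLBP and the members that passed had opposite signs. Because SLBP is on the S list that set the phases, its sign is not independent of them, and the contrast is a description. SLBP was higher in S than in G2M by 1.09 ± 0.09 in 293T (adjusted p = 1.43e-14) and by 1.10 ± 0.21 in 3T3 (adjusted p = 0.0012), whereas 7 of the 9 members tested were lower in S than in G2M in 293T and neither of the 2 tested in 3T3 passed. These are nuclear RNA counts and give no level of the protein.

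Histone chaperones and their partners carry and deposit histones, some of them behind the fork and others, such as HIRA, DAXX and ATRX, apart from replication. Among the 16 listed, 5 of 15 tested were higher in S than in G1 in 293T and 7 of 14 in 3T3. None was lower. The shares of all genes higher in S were 2.04% in 293T and 6.48% in 3T3. The largest differences in 293T were those of MCM2 (1.94), CHAF1B (1.52) and NASP (1.22), and in 3T3 those of Chaf1b (2.31), Chaf1a (1.88) and Nasp (1.85). CHAF1A and CHAF1B are subunits of the chromatin assembly factor CAF-1, and NASP binds H3 and H4 dimers. MCM2, CHAF1B and NASP were on the S list, so their direction is not independent of the phases. Of the chaperone genes called in 293T, only ASF1B (1.03) and CHAF1A (0.67) were not on it.

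Among 11 replacement histone genes, 0 of 8 tested were called between S and G1 in 293T by edgeR (2 at an unadjusted p under 0.05, and 0 of the 5 with an adjusted p from DESeq2), and 4 of 9 were higher in S in 3T3. These were Cenpa (1.28 ± 0.27, adjusted p = 0.0017), the centromeric H3, which is a gene of the G2M list, H2az2 (0.91 ± 0.23, adjusted p = 0.010), H1f0 (0.73 ± 0.19, adjusted p = 0.011) and H2az1 (0.57). H3-3A, which encodes the replacement histone H3.3, gave a difference of −0.52 ± 0.25 in 293T (adjusted p = 0.35) and its mouse counterpart H3f3a −0.06 ± 0.15 in 3T3 (adjusted p = 0.88). Between S and G2M nuclei edgeR called 2 of 8 lower in S in 293T, CENPA (−2.01) and H2AZ2 (−0.32, adjusted p = 0.0046). In 3T3 it called 2 of 9 lower, Cenpa (−2.99) and H2az2 (−1.04, adjusted p = 0.0029), and 0 were higher in either line. Of all genes 4.19% and 2.93% were lower in S.

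Finally, nuclei were grouped by the members themselves, a comparison chosen after the data had been seen. Nuclei in the upper 25% of member level of their library with at least 1 member UFI (member-rich) were set against nuclei with none (member-free), and all other genes were tested with the library as a block. In every loading library fewer than 25% of nuclei held a member UFI, so member-rich there meant any nucleus with at least 1. These were 17.3% down to 6.19% of 293T nuclei and 4.32% down to 1.28% of 3T3 nuclei. In 293T 2.38% of 15345 genes were higher in member-rich nuclei and 1.29% were lower. Of 52 G2M genes 25 were higher and 0 lower. Of 42 S genes 2 were higher and 8 lower. HJURP, the CENP-A chaperone, was higher by 0.73 ± 0.13 SE (adjusted p = 0.00067), AURKA, a mitotic kinase, by 0.70 ± 0.15 and TOP2A, topoisomerase II alpha, by 0.53 ± 0.06, each in 5 of 5 libraries. The S genes MCM6, a helicase subunit (−0.53 ± 0.09), UNG, a uracil glycosylase (−0.64 ± 0.15), and SLBP (−0.38 ± 0.10, adjusted p = 0.022) were lower. E2F1, a transcription factor of the G1 to S transition (named after its value was seen), was lower by 0.79 ± 0.14 (adjusted p = 0.00061), in 5 of 5 libraries. Of the replacement histone genes 1 of 8, H3-3B, which encodes H3.3, was higher (0.76 ± 0.21, adjusted p = 0.040), and of the processing and chaperone lists 2 of 18 and 2 of 15 were lower.

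In 3T3 1.51% of 10867 genes were higher in member-rich nuclei and 0.58% were lower. Of 53 G2M genes 31 were higher and of 38 S genes 10, and none of either list was lower. Top2a was higher by 0.74 ± 0.10 (adjusted p = 1.98e-11), Mki67, a proliferation marker, by 1.09 ± 0.17 and Ttk, a spindle checkpoint kinase, by 1.10 ± 0.16. Of the S genes, Clspn, which encodes the replication checkpoint protein claspin, was higher by 1.04 ± 0.17 (adjusted p = 1.02e-06) and Prim1, the primase, by 1.48 ± 0.37 (adjusted p = 0.0056). Of the replacement histone genes 1 of 9 was higher. Member-rich nuclei were deeper in all 10 pairs, for example 15017 against 10734 UFIs in the 293T preindexed library. In the deeper 50% of the nuclei of each library 22 of 49 G2M genes were higher in 293T and 19 of 51 in 3T3, while of the S genes 2 of 42 were higher and 4 lower in 293T and 8 of 37 were higher in 3T3. Without the library block no gene passed in either line, with 519 and 298 genes at an unadjusted p under 0.05, and without the preindexed library 35 genes passed in 3T3, 10 of them higher G2M genes and 2 higher S genes.

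**Figure D5:**
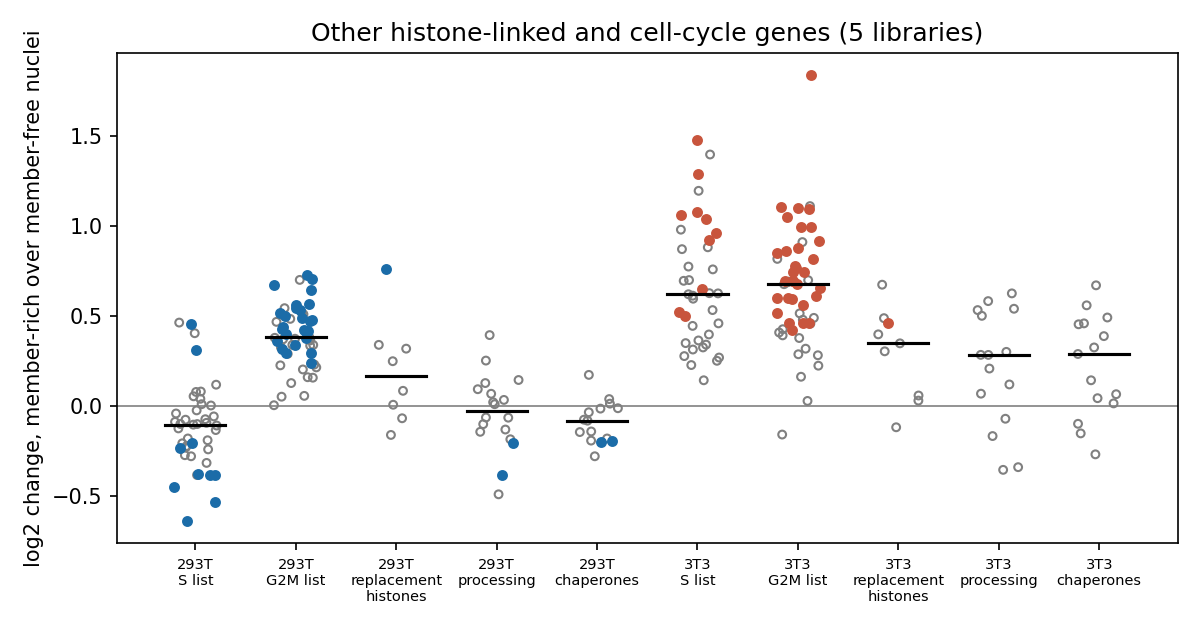
Log2 difference between member-rich and member-free nuclei (edgeR, 5 libraries, library as a block) for each gene of 5 lists in 293T and 3T3, with points past the adjusted threshold of 0.05 filled, the others open, and medians as bars. The G2M lists lie mostly above 0 in both lines and the median of the S list lies at −0.11 in 293T and 0.62 in 3T3.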

How the data were processed

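Total RNA of single nuclei was measured in 5 species-mix libraries of 293T and 3T3. The authors deposited 1 matrix of UFI counts per library, raw and not normalised, over human and mouse genes. The study's methods name STARsolo for the species mix, and the submitters' processing notes list cutadapt, UMI-tools, STAR, featureCounts and Scanpy with builds GRCh38, GRCm38 and mm10, without versions. How the loading libraries were processed is not given in the sources used here. Counts were strand specific. Depth was 14097151 to 35223112 UFIs per library, and intervals cover counting error only.

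Nuclei were kept at 90% of UFIs on their species. No doublet caller was run beside this rule. The libraries shared 0 to 93 barcodes per pair, of 2321 to 18100. Phases were scored per library and line with Scanpy 1.11.5 on counts scaled to 10000 and logged, without members in the lists or control genes. UFIs were summed per library, line and phase and tested with edgeR 4.0.16 (R 4.3.3; TMM, filterByExpr, quasi-likelihood test, Benjamini-Hochberg adjustment at 0.05) with library as a block, because the same libraries supply every phase. DESeq2 1.42.0 was an alternative. The steps were tested on simulated data. Intervals were exact (Clopper-Pearson for shares, Poisson for counts, 95%). Stem-loops were read from GENCODE M21 and promoters from RefSeq tables, and human sequences were not used here.

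Genes were named by rule. Per line these were the 2 members of each class with the most UFIs and the 6 listed as able to carry poly(A). To these came the 3 members with the largest S against G1 difference in each direction among those called (adjusted p under 0.05). Members with no UFI were named where 10 or fewer. From each other list the 3 largest differences were named, with SLBP, NPAT and H3-3A. The members and lists were chosen with earlier results of these data known.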

Additional observations from a re-analysis of the deposited data

Results flagged for a closer look

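Members were also found in the 7 mouse brain libraries, which enter no comparison above and were counted by another pipeline under older symbols. Their summed level was 23.9 and 27.2 UFIs per 1000000 in the 2 libraries titled as without index from frozen brain, 23.8 and 22.9 in the 2 titled as indexed from frozen brain, 28.2 and 28.4 in the 2 titled as without index from fresh brain and 21.5 in the 1 titled as indexed from fresh brain. What drew attention to them was a signal in data outside the main measurement, above the limit that a count of 0 allows. Over the 7 libraries 55 members were listed, 25 of them in all 7. H2bc6 (listed as Hist1h2be) held 50.6% of the 4555 member UFIs, and this is the gene whose annotated span is long and overlaps H1f4. In 4 of these libraries the primer given under treatment contradicts the title, and the titles were followed.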

How the results depend on the processing

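Over the comparisons 103 recomputed counts, levels and shares stayed near the main value and 31 did not. Counts were judged by a fixed factor, and levels and shares by the spread between libraries. Of the values of single genes, which were counted apart, 146 kept their direction and side of the threshold, 22 lost their call and 9 changed sign. Without the replicate block of libraries, 0 members passed between S and G1 in 3T3 (1 with it), 0 between S and G2M in 293T (7 with it) and 0 of the named members (1 with it), and 0 genes passed between member-rich and member-free nuclei in either line. The counts over all genes fell too, from 407 to 54 (S and G1) and 1262 to 86 (S and G2M) in 293T and from 1159 to 239 and 394 to 80 in 3T3, since the unblocked fit leaves the gap between libraries in the spread. Without a filter on low counts 17 members passed between S and G1 in 3T3, all higher in S, and 1 between S and G2M, and 982 genes between member-rich and member-free nuclei in 293T. With phases scored after thinning to 1000, 0 passed between S and G1 in 3T3 and 3 between S and G2M in 293T. With 75% of UFIs on the species, 0 passed between S and G1 in 3T3. DESeq2 gave 0 between S and G2M in 293T, where 8 of the 9 had no adjusted p. Of the named members 0 passed with thinned phases, 75% of UFIs or classes by list share (S as the top 25% of S-list share with a G2M-list share below the median, G1 as nuclei at or below both medians), for H1f4 was then not tested. With no member tested in 3T3, those classes and the fit without the preindexed library gave no count there. In these classes the log2 ratio of S to G1 was 0.49 in place of 1.24 in 3T3 and −0.41 in place of −0.13 in 293T.

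Leaving out each library in turn gave 0 to 1 named members between S and G1, 5 to 8 members between S and G2M in 293T, 187 to 1570 genes between member-rich and member-free nuclei in 293T (1570 without the preindexed library, and 187, 243, 260 and 217 without loading 300, 600, 1200 and 2000) and 35 to 217 in 3T3 (35 without the preindexed library). In the deeper 50% of nuclei these counts were 256 and 128, and with DESeq2 244 and 68, against 563 and 227. The mean share of nuclei with a member UFI over the 5 libraries, 7.85% in 293T, was 13.9% thinned to 2000, 22.2% unthinned and 1.30% for at least 2 UFIs. In 3T3, 5.23% became 15.6% unthinned and 1.60% without the preindexed library (5.73% in 293T).

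None of the human members was called between S and G1, and several changed sign there. H2AC6 (0.16) ran from −0.018 (without loading 600) to 0.47 when each library was left out. H2BC11 (−0.19) was 0.058 with thinned phases and 0.37 at 75% of UFIs, and ran from −0.50 to 1.03 (without loading 300). H2BC15 (−0.16) was 0.44 with classes by list share and 0.10 at 75%, and ran from −0.36 to 0.063 (without loading 1200). H2BC4 (0.29) was −0.27 at 75%, and H2BC5 (−0.63) was 0.073 with thinned phases. The count filter limits the test, since 57 human and 63 mouse members did not pass it. Some of these had many UFIs in the preindexed library but few in the loading libraries.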
